A study of Mus musculus with 6 samples.

Results

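The E14.5 epithelium library labelled Pbx mutant was set against the E12.5 control epithelium library, 2 of the 6 RNA-sequencing libraries made from sorted cells of the mouse dorsal pancreatic bud. The comparison asks whether the older epithelium labelled mutant resembled younger normal epithelium, as a delayed organ would, or was unlike it. Of the 24062 genes in the deposited tables, 12211 reached 5 CPM (counts scaled to library size) in at least 1 of the 2 libraries, and these are called measured below. Control embryos carried mTmG, a reporter that changes from red Tomato to green GFP fluorescence in cells where Cre recombinase has acted. Red and green cells were sorted, frozen and later pooled, so each library is 1 pool of an unstated number of embryos. Embryos labelled mutant were mTmG+/-, carried Nkx2.5-Cre+/- and were Pbx2+/-, so the reporter is common to all 6 groups. The other 4 libraries, which serve here only as references, were E12.5 epithelium labelled mutant, E14.5 control epithelium, and E12.5 mesenchyme of each label. Stage and genotype label both differ between the 2 libraries compared, and their shares cannot be told apart within this pair.

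The dorsal bud of the embryonic pancreas is a branching epithelium wrapped in mesenchyme that feeds it with growth signals. Around E12.5 most of its epithelial cells are multipotent progenitors that express factors such as Pdx1 and Sox9, with early glucagon cells among them. In the following days the branch tips turn on the digestive enzymes of acinar cells, while the trunk gives rise to ducts and, through a pulse of Neurog3, to the endocrine cells of the islets. Pbx proteins are homeodomain factors that bind DNA together with Hox and Meis partners. Nkx2-5, whose locus drives the Cre, is a gene of the mesenchyme near the dorsal pancreas and future spleen.

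With 1 library per group there is no replicate check and no p-value, and every ratio describes these 2 libraries. Ratios are given with an exact 95% binomial (Clopper-Pearson) interval that covers counting error only. A measured gene counts as higher or lower when it differed 2-fold or more and the interval left out 1. By this rule 794 genes (6.5% of those measured) were higher in the E14.5 mutant-labelled epithelium and 1057 (8.66%) were lower, 15.2% in all, and the median log2 ratio over all measured genes was -0.0039. When ratios were taken against the median general epithelial gene, the higher share of the calls went from 42.9% to 67.6%, with 1246 higher and 596 lower, because the median of all genes then stood at 0.28. The 6 libraries held 14032569 to 20276045 counts on genes, the smallest being the E14.5 mutant-labelled and the largest the E12.5 control epithelium. Fewer cells of a type and less RNA per cell cannot be told apart in such pools. Pbx2 read 54.5 CPM in the E12.5 control and 47.3 CPM in the E14.5 mutant-labelled epithelium, 1.15-fold lower (1.05 to 1.27), a log2 ratio of -0.20 that became 0.08 relative to the general epithelial genes. A ratio this near 1 does not show the loss of 1 copy, so the library is called mutant-labelled throughout. Nkx2-5 read 0.612 and 0.862 CPM in the same order, against 41.2 CPM in control and 66.8 CPM in mutant-labelled mesenchyme.

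The label of epithelium held for both libraries, but the summed level of general mesenchymal genes was higher in the E14.5 mutant-labelled one. All 32 general epithelial genes reached 5 CPM in both, and they summed to 5383 CPM in the E12.5 control and 5218 CPM in the E14.5 mutant-labelled epithelium, against 416 and 366 CPM in the mesenchyme libraries. The sum over 34 general mesenchymal genes was 6687 CPM in the E12.5 control, 7763 CPM in the E12.5 mutant-labelled, 6938 CPM in the E14.5 control and 14285 CPM in the E14.5 mutant-labelled epithelium. The last value lies above the 14031 and 12654 CPM of the control and mutant-labelled mesenchyme, where the epithelial genes were low. Other mesenchymal lists differed in this. The splanchnic factors summed to 1526 CPM in the E14.5 mutant-labelled epithelium, below the 3170 and 3314 CPM of the mesenchyme libraries. Smooth muscle and pericyte genes summed to 2183 CPM, above their 1860 and 1511 CPM. The part of RNA from mesenchymal cells in the results below was not tested.

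**Figure D1:**
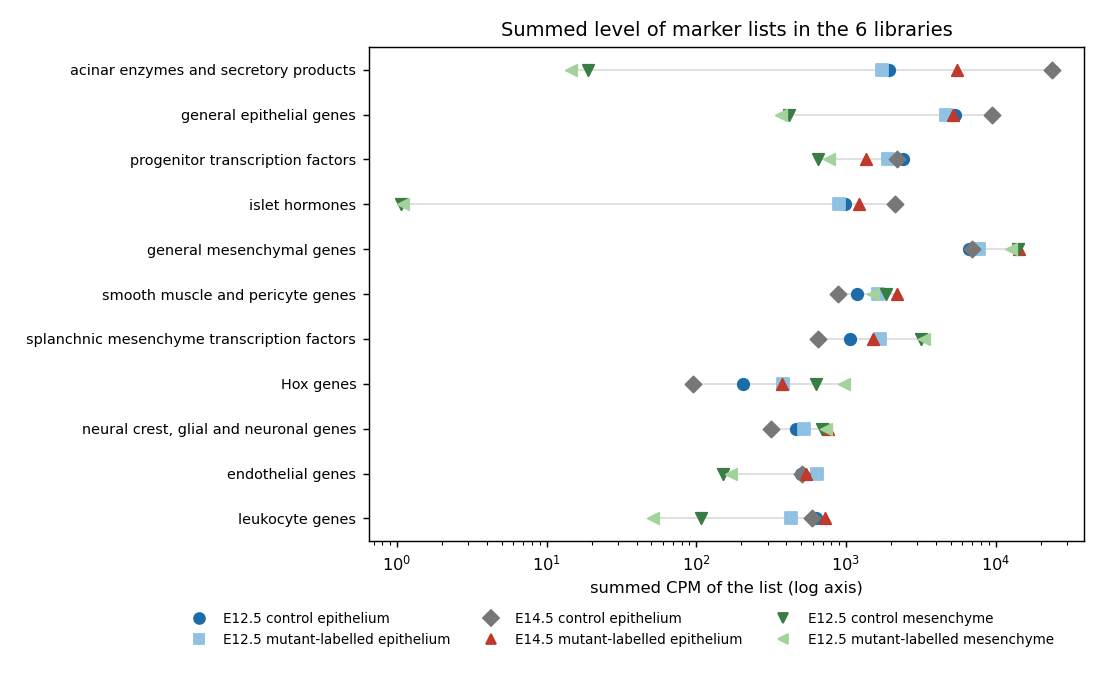
Summed CPM of 11 marker lists (log axis) in each of the 6 libraries, 1 point per library, with no error since each group is 1 pool. The E14.5 mutant-labelled epithelium (red triangles) lies between the control epithelia for acinar enzymes and hormones, lowest of the 4 epithelial libraries for progenitor factors and at the level of the mesenchyme libraries for general mesenchymal genes.

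Counted over all genes and before any adjustment for transcript length, the E14.5 mutant-labelled epithelium differed from the E12.5 control about as much as from the E14.5 control. Against the E12.5 control 15.2% of measured genes were called and the median size of the log2 ratio was 0.41. Against the E14.5 control epithelium the same figures were 16% and 0.36, and against the E12.5 mutant-labelled epithelium 12.2% and 0.33. Adjusted for transcript length, as described below, 11.9% were called against the E12.5 control, which is less than the 16% against the E14.5 control. The pair of E14.5 libraries was not so adjusted. The mesenchyme libraries lay farther away, with 25.6% called against the control and 23.8% against the mutant-labelled one. For scale, the E12.5 epithelia of the 2 labels differed at 5% of genes and the control epithelia of the 2 stages at 17.7%. These comparisons share libraries and are given only side by side. For 40% of measured genes the level lay between those of the E12.5 and E14.5 control epithelia, for 23.2% it was the highest and for 24.9% the lowest of the 4 epithelial libraries.

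Part of the difference followed transcript length. Over the 11696 genes with a GENCODE transcript (95.8% of those measured), the Spearman correlation between the log2 ratio and the length of the longest transcript was -0.49, across genes, which are not independent replicates. The median log2 ratio was 0.42 for transcripts up to 1500 bases, 0.22 up to 3000, -0.10 up to 5000, -0.43 up to 8000 and -0.70 for longer ones. The Spearman correlation was also negative in each other comparison with the E12.5 control epithelium, at -0.45 for the E14.5 control and -0.32 for the E12.5 mutant-labelled epithelium. Between the E14.5 libraries it was 0.01. Each ratio was therefore also taken against the median of genes of like length, which left 769 genes higher (6.57%) and 617 lower (5.28%). What made the short and long transcripts differ was not tested, and length-adjusted values stand below beside the lists they touch.

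**Figure D2:**
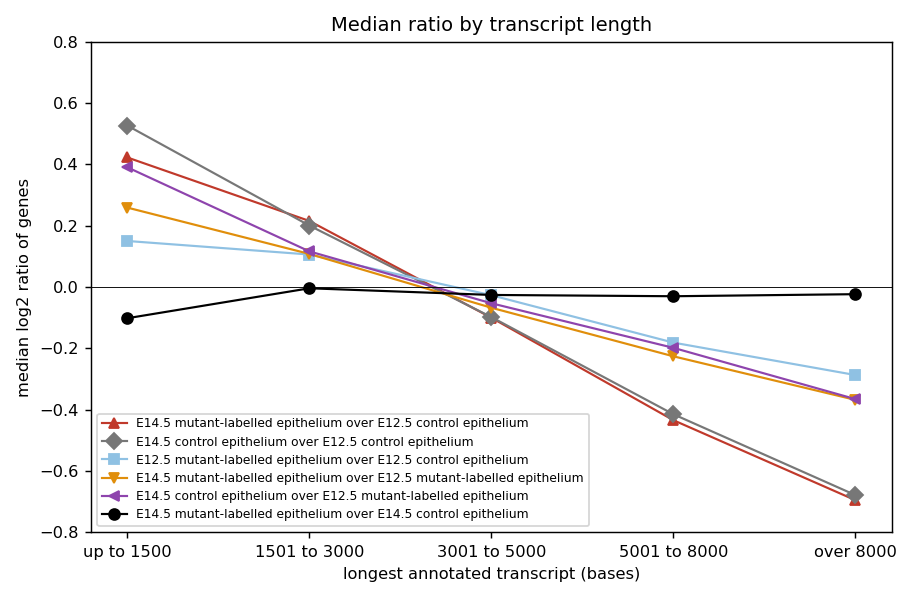
Median log2 ratio (vertical axis) of the genes in 5 classes of longest annotated transcript (horizontal axis, bases) for 6 pairs of epithelial libraries. The E14.5 mutant-labelled over E12.5 control pair (red) falls from 0.42 to -0.70, while the pair of E14.5 libraries (black) stays near 0.

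A stage reference was made from the other 2 epithelial libraries, the E14.5 control over the E12.5 mutant-labelled epithelium, which shares no library with the pair described here. Its libraries also differ in genotype label, the other way round, so any label difference enters both ratios with opposite sign. There 959 genes were called higher (7.91%) and 1298 lower (10.7%). Of the 815 higher genes that were measured, 226 (27.7%) were higher in the E14.5 mutant-labelled over the E12.5 control epithelium and 55 (6.75%) were lower, against 6.5% and 8.66% of all genes. Their median log2 ratio was 0.42, where the reference gave 1.45. Of the 208 with 4-fold or more in the reference, 115 (55.3%) were higher and 10 lower, with a median of 1.09 against 2.65. On the median these genes were higher here too, by less. They were chosen for their size in the reference, so smaller ratios elsewhere follow in part from the choice. Stage, label and choice of genes cannot be told apart in this contrast.

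Genes lower at E14.5 in the reference, chosen in the same way, had a smaller part of that difference here. Of 1216 measured, 250 (20.6%) were lower in the E14.5 mutant-labelled over the E12.5 control epithelium and 71 (5.84%) were higher, and their median log2 ratio was -0.28 against -1.46 in the reference. Among the 287 with 4-fold or more, the median was -0.36 against -2.54, and 85 were called lower. Adjusted for length, 149 of the 1216 were lower and 82 higher with a median of -0.12, and 53 of the 287 were lower with a median of -0.17. Across the 11784 genes measured in both comparisons, Pearson's r of the log2 ratios was 0.33 and the Spearman correlation 0.28, and 0.26 and 0.17 with both adjusted for length. Of the genes called in the E14.5 mutant-labelled over the E12.5 control epithelium, 46.6% of the higher and 47.6% of the lower ones were called neither in this stage reference nor in a reference of mesenchyme over epithelium at E12.5.

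**Figure D3:**
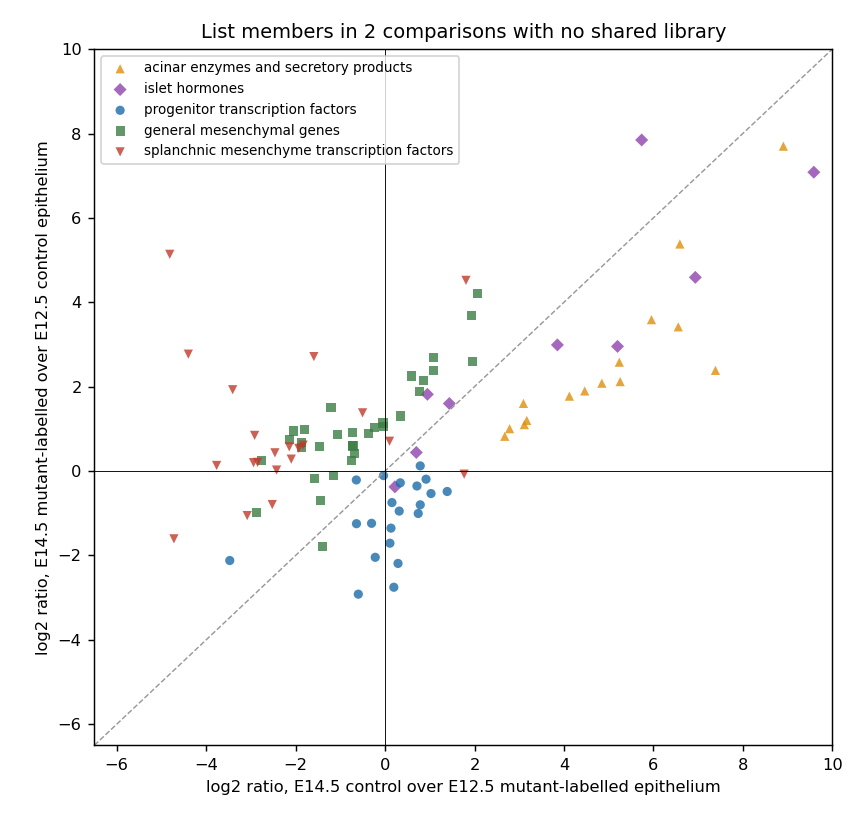
Log2 ratio of E14.5 mutant-labelled over E12.5 control epithelium (vertical) against the stage reference of E14.5 control over E12.5 mutant-labelled epithelium (horizontal), 1 point per measured member of 5 lists, with genes without a read placed at their floor. All 15 acinar products lie between 0 and the dashed line of equal ratios, 31 of 32 general mesenchymal genes lie above that line and 20 of 21 progenitor factors lie below 0 on the vertical axis.

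Digestive enzymes and other acinar products were higher than at E12.5 but far short of the E14.5 control. Of 33 listed genes 15 were measured and 14 were called higher, with a median log2 ratio of 2.08 (1.68 adjusted for length, with 10 higher). Only 10 reached 5 CPM in both libraries, 9 of them higher, while 5 passed through the E14.5 mutant-labelled library alone and so had to be higher, and 18 were measured in neither. In all 15 the level lay between those of the 2 control epithelia. The 33 genes summed to 1938 CPM in the E12.5 control, 1753 CPM in the E12.5 mutant-labelled, 23781 CPM in the E14.5 control and 5535 CPM in the E14.5 mutant-labelled epithelium.

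Ctrb1 (chr8:111686519-111691010), a chymotrypsinogen, read 44.2 CPM in the E12.5 control, 30.2 in the E12.5 mutant-labelled, 2845 in the E14.5 control and 472 CPM in the E14.5 mutant-labelled epithelium. The last stood 10.7-fold above the E12.5 control (9.98 to 11.5) and 6.02-fold below the E14.5 control (5.87 to 6.18). Pnliprp1, a lipase-related protein of pancreatic juice, read 266, 208, 7850 and 1594 CPM in the same order, 5.98-fold above the E12.5 control (5.81 to 6.16). For both genes the E12.5 libraries lay close together at the bottom and the E14.5 control alone at the top. Cel (chr2:28555795-28563403), the bile salt-dependent lipase, read 56.8, 47.1, 1040 and 212 CPM, 3.73-fold above the E12.5 control (3.49 to 3.99). Cpa1, carboxypeptidase A1, which already marks the early tip progenitors, read 700.1, 698, 4464 and 1239 CPM and was the exception among the 15, at 1.77-fold (1.73 to 1.81).

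Amy2b, Cpb1 and Cela3b were detected here and nearly absent at E12.5. They passed the filter through the E14.5 mutant-labelled library alone and so had to be higher in this pair. Amy2b, a pancreatic amylase, had no read in either E12.5 epithelium, 94.6 CPM in the E14.5 control and 29.4 CPM in the E14.5 mutant-labelled epithelium, at least 208-fold above the floor of 3 counts. Cpb1, carboxypeptidase B, read 0, 0.591, 57.1 and 5.89 CPM, at least 41.7-fold higher. Cela3b, an elastase, read 0.424, 0.657, 40.8 and 5.10 CPM, 12-fold higher (5.99 to 27.4). Amylase and trypsinogen genes have near-identical copies, so their single values are uncertain.

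Promoter sequences of the measured acinar genes were searched for the parts of the site bound by PTF1, the complex of Ptf1a with Rbpj or Rbpjl that drives acinar genes. RefSeq (GRCm38.p6) held a promoter, 250 bases before to 50 after the start, for 11 of the 15. CACCTG, a form of its E-box part, was found on either strand in 7 of the 11 (63.6%) against 20.03% of 27025 promoters, TGGGAA in 6 (54.5%) against 25.5%, and both in 2, Cel and Prss2 (18.2% against 5.27%). These are letter matches and say nothing of binding in these cells. The Cel promoter (chr2:28563354-28563653, minus strand) is shown because it holds both parts, and that of Ctrb1 (chr8:111690961-111691260, minus strand) because its gene had a larger ratio with a TGGGAA match alone. Capitals mark the matches on either strand, CAGGTG and TTCCCA being the reverse complements.
Cel: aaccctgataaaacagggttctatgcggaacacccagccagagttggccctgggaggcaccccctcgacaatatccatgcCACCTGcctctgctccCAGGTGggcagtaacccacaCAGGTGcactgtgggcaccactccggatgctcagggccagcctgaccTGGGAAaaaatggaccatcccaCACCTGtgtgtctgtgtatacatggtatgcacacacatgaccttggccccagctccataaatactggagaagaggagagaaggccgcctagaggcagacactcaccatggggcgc
Ctrb1: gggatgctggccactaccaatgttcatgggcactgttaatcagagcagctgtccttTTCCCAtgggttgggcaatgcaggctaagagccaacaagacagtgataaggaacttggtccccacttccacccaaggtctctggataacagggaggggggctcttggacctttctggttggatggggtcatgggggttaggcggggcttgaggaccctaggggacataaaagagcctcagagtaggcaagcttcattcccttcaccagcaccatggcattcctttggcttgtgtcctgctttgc
Counted from the start, the Cel matches begin at -170, -154, -134, -87 and -65, the one at -87 being TGGGAA, and the Ctrb1 match begins at -194.

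The factors that run the acinar programme stood nearer to E12.5 than their enzymes did. All 8 acinar transcription factors were measured, with 1 higher, 2 lower and a median log2 ratio of -0.27, which turns to 0.01 relative to the general epithelial genes. Every one of the 8 had a smaller ratio than in the stage reference, and 5 were below 0 here and above 0 there. Ptf1a, the founding factor of the acinar line, read 51.3 CPM in the E12.5 control, 45.3 in the E12.5 mutant-labelled, 189 in the E14.5 control and 56.8 CPM in the E14.5 mutant-labelled epithelium, a 1.11-fold ratio to the first (1.01 to 1.21). Its partner Rbpjl read 70.3, 46.4, 317 and 50.8 CPM, and Gata4, a factor of tip cells, read 74.1, 57.3, 195 and 70.5 CPM. In these 3 genes the E14.5 control alone was high and the other 3 libraries lay together. Bhlha15 (Mist1), which shapes the secretory apparatus of mature acinar cells, was the one called higher, at 7.58, 5.06, 199 and 47.0 CPM (6.2-fold, 5.21 to 7.42). Nr5a2, a nuclear receptor of acinar cells, read 23.4, 16.4, 27.2 and 9.48 CPM and was 2.46-fold lower (2.03 to 3.01). Mecom was 2.31-fold lower (1.97 to 2.72).

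**Figure D4:**
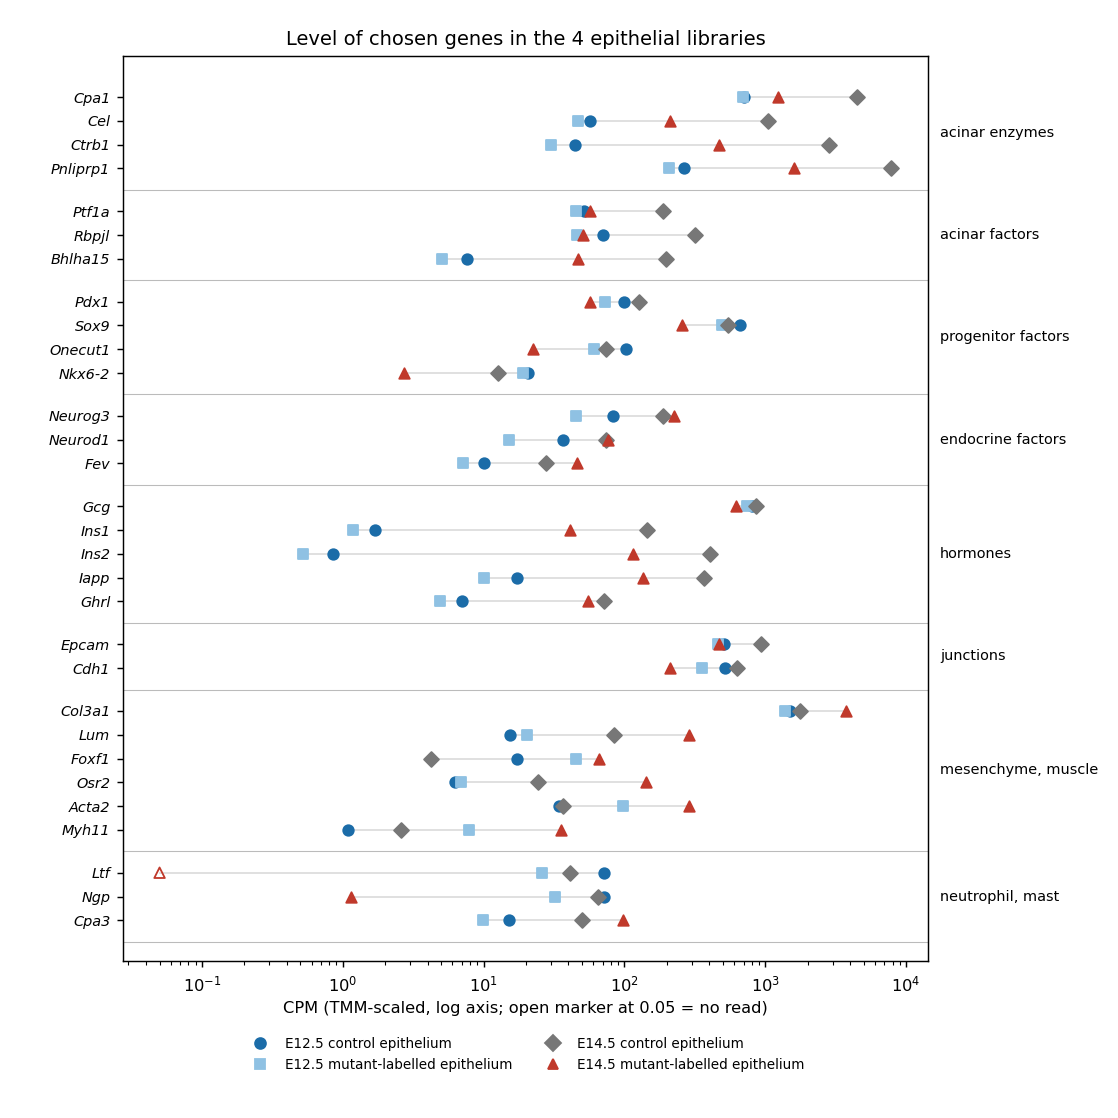
TMM-scaled CPM (log axis) of 30 genes in the 4 epithelial libraries, 1 point per library and an open marker where no read was found. For acinar enzymes, Ins1 and Ins2 the E14.5 mutant-labelled library (red triangle) lies between the E12.5 libraries and the E14.5 control, for progenitor factors it lies lowest and for the 6 mesenchymal and muscle genes shown it lies highest.

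Progenitor transcription factors went beyond either control. Of 23 listed genes 21 were measured, 10 were called lower and none higher, with a median log2 ratio of -0.95 that was -0.98 after adjustment for length. In 15 of the 21 the E14.5 mutant-labelled epithelium was the lowest of the 4 epithelial libraries, against 24.9% of all genes, and 5 were called lower than each of the other 3, against 1.08%. Of the 19 that reached 5 CPM in both libraries 8 were lower. The other 2 passed through the E12.5 control alone and had to be lower.

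Sox9, which keeps pancreatic progenitors dividing and later marks ducts, read 656 CPM in the E12.5 control, 493 in the E12.5 mutant-labelled, 540 in the E14.5 control and 257 CPM in the E14.5 mutant-labelled epithelium, 2.55-fold lower than in the first (2.46 to 2.65). Onecut1, which acts upstream of Neurog3, read 103, 61.0, 74.5 and 22.5 CPM (4.56-fold lower, 4.05 to 5.15). In both of these the E14.5 mutant-labelled library stood below the other 3, with the E12.5 control on top. Prox1 read 104, 71.5, 61.4 and 25.3 CPM (4.13-fold lower, 3.68 to 4.63). Nkx6-2 read 20.6, 19.2, 12.7 and 2.73 CPM (7.56-fold lower, 5.42 to 10.8), and Glis3, needed for islet and duct development, 13.6, 5.98, 6.85 and 2.01 CPM (6.75-fold lower, 4.57 to 10.3).

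Pdx1, the factor that defines the pancreatic field, was less changed in size and also lowest of the 4, at 99.5, 72.9, 126 and 57.2 CPM, 1.74-fold below the E12.5 control (1.60 to 1.89) and so not called. Gata6 read 73.1, 52.1, 89.9 and 79.6 CPM, the one measured member above the E12.5 control. Etv4, a target of FGF signalling, was lower in both E14.5 libraries than in both E12.5 ones, and lowest in the E14.5 control, at 26.2, 30.4, 2.74 and 6.03 CPM (4.35-fold lower, 3.45 to 5.54). Its relative Etv5 read 67.0, 74.6, 47.9 and 28.2 CPM.

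Endocrine transcription factors were, in contrast, mostly above the E12.5 control. Of 30 endocrine transcription factors 25 were measured, with 10 higher, 2 lower and a median log2 ratio of 0.54 (0.56 adjusted for length). The E14.5 mutant-labelled epithelium was the highest of the 4 libraries for 12 of them. Of the 23 at 5 CPM in both, 8 were higher and 2 lower. Neurog3 (chr10:62133090-62134763), which commits progenitors to the endocrine line, read 82.8 CPM in the E12.5 control, 45.5 in the E12.5 mutant-labelled, 187 in the E14.5 control and 223 CPM in the E14.5 mutant-labelled epithelium, 2.70-fold above the first (2.54 to 2.86).

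Genes that act downstream of Neurog3 had a like order. Neurod1, an early target, read 36.4, 15.2, 73.9 and 76.3 CPM (2.09-fold higher, 1.91 to 2.30), and Fev, a factor of endocrine precursors, 10.1, 7.16, 27.5 and 46.0 CPM (4.55-fold, 3.89 to 5.33). Pax4, which favours beta over alpha cells, read 17.9, 8.80, 33.2 and 45.8 CPM (2.57-fold, 2.26 to 2.92), and Pax6 read 12.9, 12.4, 33.2 and 37.7 CPM (2.93-fold, 2.53 to 3.41). For these 4 genes both E14.5 libraries were above both E12.5 libraries, with the mutant-labelled one on top. Insm1, Myt1, St18 and Neurod2 were also called higher, at 2.14-, 2.54-, 3.21- and 4.99-fold. The 2 lower members were Peg3, an imprinted zinc-finger gene with 1713 CPM in the E12.5 control and 439.5 CPM in the E14.5 mutant-labelled epithelium (3.90-fold, 3.79 to 4.00), and Sox11 at 114 and 54.6 CPM (2.08-fold, 1.92 to 2.26). Both genes were also high in the mesenchyme libraries, Peg3 at 1282 and 802 CPM. Sox11 was 2.08-fold lower as reported but not called after the adjustment for length, with a log2 ratio of -0.41.

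Hormone genes of the second endocrine wave were far above E12.5, while glucagon was not. Of 12 hormones 9 were measured and 7 called higher, with a median log2 ratio of 2.95 (2.51 adjusted for length), and 4 of the 6 at 5 CPM in both libraries were higher. The other 3, Ins1, Ins2 and Sst, passed through the E14.5 mutant-labelled library alone and so had to be higher. Ins2 read 0.848 CPM in the E12.5 control, 0.526 in the E12.5 mutant-labelled, 405 in the E14.5 control and 115 CPM in the E14.5 mutant-labelled epithelium, 136-fold above the first (85.5 to 229). Ins1 read 1.70, 1.18, 145 and 40.9 CPM (24.1-fold, 17.2 to 34.8). Both insulin genes thus stood 3.52-fold and 3.55-fold below the E14.5 control. Iapp, the amylin gene of beta cells, was placed likewise, at 17.4, 10.1, 369 and 135 CPM (7.75-fold, 6.93 to 8.69).

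Other hormones stood closer to the E14.5 control. Ghrl, the ghrelin gene, read 6.97, 4.93, 71.2 and 55.4 CPM (7.94-fold higher, 6.65 to 9.54), and Sst, somatostatin, 0.0471, 0.329, 17.5 and 10.8 CPM, where the first value is a single count (230.2-fold, 40.7 to 9153). Gast, gastrin, was highest in the E14.5 mutant-labelled epithelium, at 6.31, 7.82, 15.1 and 22.3 CPM, and so was Cck, cholecystokinin, at 13.5, 7.03, 19 and 41 CPM. Gcg, the glucagon gene of the first endocrine cells, read 802, 741, 863 and 619 CPM, the lowest of the 4 and 1.30-fold below the E12.5 control (1.26 to 1.33).

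Genes of the secretory granule and of beta cells were higher in part. Of 29 measured, 14 were higher and 1 lower, with a median log2 ratio of 0.98 (0.79 adjusted for length, with 9 higher). Of the 26 at 5 CPM in both, 11 were higher and 1 lower. Chgb, a granule protein of endocrine cells, read 142, 110, 476 and 665 CPM (4.70-fold higher, 4.51 to 4.90), and Scgn, a calcium sensor of islet cells, 7.82, 2.69, 72.0 and 72.6 CPM (9.29-fold, 7.87 to 11). Chga read 56.1, 45.7, 279 and 200.4 CPM (3.57-fold, 3.34 to 3.83). Slc2a2, the glucose transporter Glut2, which early progenitors also carry, was the lower member, at 60.9, 66.0, 12.1 and 18.5 CPM (3.28-fold, 2.87 to 3.77), and was low in both E14.5 libraries.

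Duct and trunk genes split. Of 20 measured 6 were higher and 4 lower, with a median log2 ratio of -0.19 that turned to 0.09 relative to the general epithelial genes and to 0.07 with a 1 CPM filter or none. Of the 16 at 5 CPM in both libraries 3 were higher and 3 lower. Krt19, a keratin of ducts, read 57.7, 57.4, 139 and 179 CPM (3.10-fold higher, 2.89 to 3.32), and Car2, the carbonic anhydrase of duct cells, 2.59, 5.39, 4.18 and 19.3 CPM (7.46-fold, 5.56 to 10.2), having passed through the E14.5 mutant-labelled library alone. The 4 lower ones include Sox9, which is also a progenitor factor. Spp1, osteopontin, was nearly level with E12.5, at 1287, 984, 2221 and 1175 CPM.

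General epithelial genes were mostly a little below E12.5. Of 32 measured 1 was higher and 5 lower, with a median log2 ratio of -0.28, and 17 were lowest of the 4 epithelial libraries. Cdh1, which encodes E-cadherin, the adhesion protein of epithelial junctions, read 514, 353, 628 and 211 CPM (2.43-fold lower, 2.34 to 2.54), below both control epithelia. Epcam, another adhesion protein, read 508, 462, 938 and 467 CPM, so that only the E14.5 control stood out. The other lower ones were Cgn, a tight junction protein, Dsp, a desmosome protein, and the epithelial regulators Esrp2 and Grhl2, by 2.73-, 2.09-, 2.2- and 2.02-fold. Krt19 was the higher one, and it also counts among the duct and mesothelial genes.

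**Figure D5:**
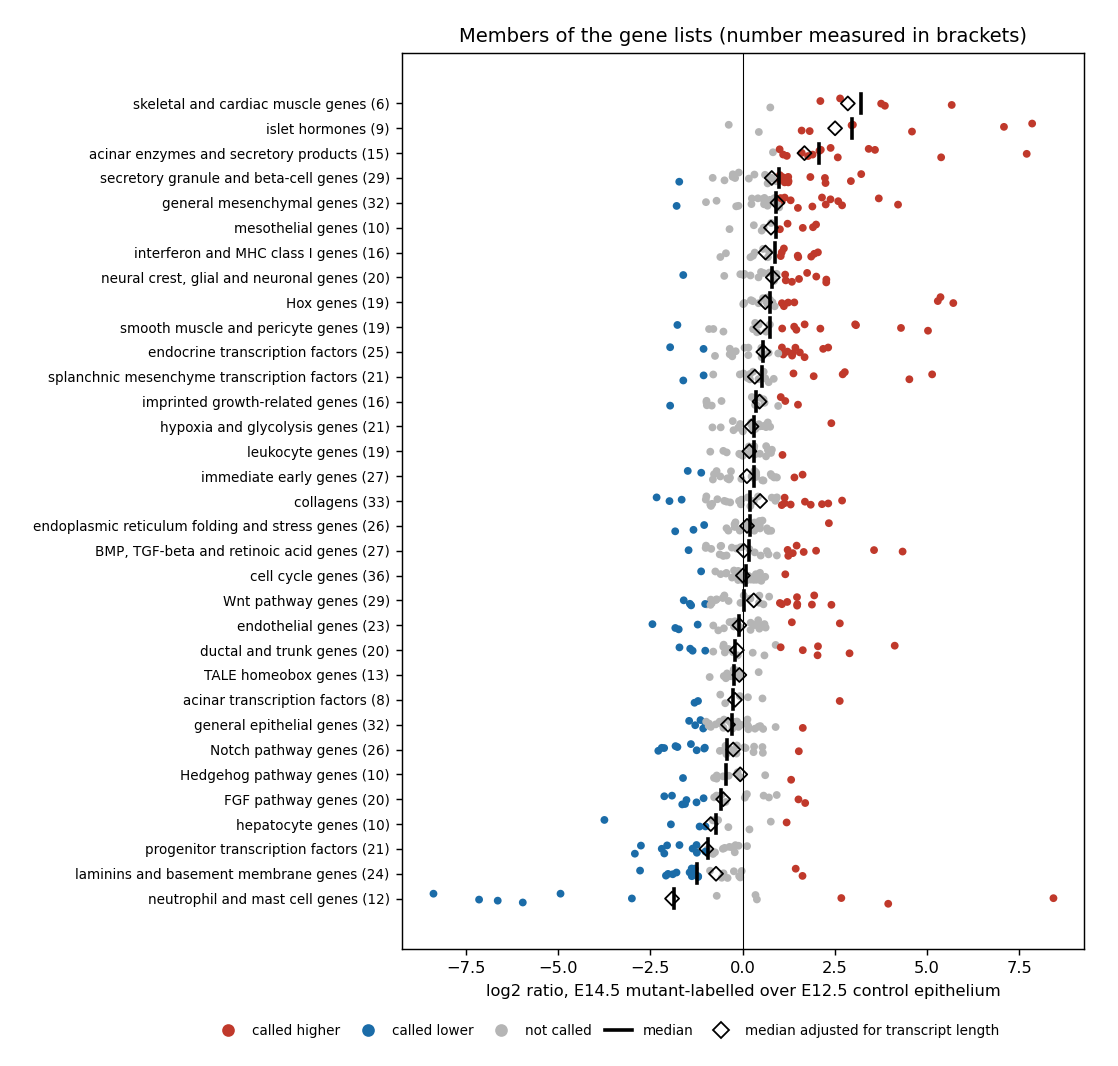
Log2 ratio of E14.5 mutant-labelled over E12.5 control epithelium for each measured member (points) of 33 gene lists, with the list median (bar) and the median adjusted for transcript length (diamond). Red and blue points were called, grey ones were not, and genes without a read in 1 library stand at the ratio to the floor of 3 counts. Hormones and acinar products lie to the right, and progenitor factors and neutrophil genes to the left.

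Many genes of mesenchyme were higher in the E14.5 mutant-labelled epithelium than in both control epithelia. Of 32 general mesenchymal genes measured, 13 were higher and 1 lower, with a median log2 ratio of 0.90 (0.95 adjusted for length). The E14.5 mutant-labelled level was the highest of the 4 epithelial libraries for 24 of them, against 23.2% of all genes, and 6 were called above each of the other 3, against 2.04%. Of the 31 at 5 CPM in both libraries 12 were higher and 1 lower. In the stage reference 18 of the 32 lay below 0 where they lay above 0 here.

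Lum, the matrix proteoglycan lumican, read 15.5 CPM in the E12.5 control, 20.2 in the E12.5 mutant-labelled, 84.3 in the E14.5 control and 287 CPM in the E14.5 mutant-labelled epithelium, 18.5-fold above the first (16.6 to 20.8). The mesenchyme libraries held 13.4 and 10.2 CPM, so Lum was high in the E14.5 libraries and low in every E12.5 one. Dcn, decorin, read 88.7, 109.6, 234 and 463 CPM (5.21-fold, 4.95 to 5.49), and Col6a1, a collagen VI chain, 70.9, 81.5, 173 and 459.6 CPM (6.48-fold, 6.13 to 6.86). Col3a1, a fibrillar collagen, read 1506, 1385, 1757 and 3717 CPM (2.47-fold, 2.43 to 2.5), with 3041 and 2310 CPM in the mesenchyme. Vim, the intermediate filament vimentin, read 426, 499, 313 and 569 CPM, 1.33-fold higher (1.29 to 1.38). Fn1, fibronectin, was the lower one, at 129, 91.4, 34.7 and 37.5 CPM (3.45-fold, 3.14 to 3.80), low in both E14.5 libraries.

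Mesenchyme genes chosen on other libraries were called in both directions. Of 648 genes called higher in E12.5 mutant-labelled mesenchyme over E12.5 mutant-labelled epithelium (5.42%), 525 were measured here, of which 90 (17.1%) were higher and 66 (12.6%) lower, with a median log2 ratio of 0.07, against 6.5% and 8.66% of all genes. Adjusted for length, 93 were higher and 29 lower, with a median of 0.22. Of the 62 at 4-fold or more there, 21 were higher and 6 lower, with a median of 0.38. Most of the 525, 369 of them, were called neither way.

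The transcription factors of the splanchnic mesenchyme, the mesoderm that wraps the gut and its buds, went both ways. Of 30 listed genes 21 were measured, 6 were higher and 2 lower, with a median log2 ratio of 0.54 (0.33 adjusted for length). Among the 18 at 5 CPM in both libraries 3 were higher and 2 lower. The other 3, Pitx1 among them, passed through the E14.5 mutant-labelled library alone and so had to be higher. Foxf1, a mediator of Hedgehog signals in gut mesenchyme, read 17.2 CPM in the E12.5 control, 45.1 in the E12.5 mutant-labelled, 4.25 in the E14.5 control and 65.6 CPM in the E14.5 mutant-labelled epithelium (3.80-fold, 3.37 to 4.31), and 29.0 and 22.6 CPM in the mesenchyme. Osr2 read 6.22, 6.90, 24.2 and 143 CPM (22.9-fold, 19.2 to 27.6), and Pitx1, a factor of hindlimb and posterior mesoderm, 0.612, 5.78, 0 and 21.5 CPM (35.2-fold, 20.3 to 66.9). In Foxf1 and Pitx1 both mutant-labelled epithelia were above both control epithelia.

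Some splanchnic factors that were not called had a like order. Tcf21, a factor of organ-capsule and spleen mesenchyme, read 117, 203, 26.4 and 134 CPM, and Hand1 9.89, 14.9, 1.10 and 10.8 CPM, both with a log2 ratio within 0.32 of 0. Barx1, of stomach and spleen mesenchyme, read 117, 239, 67.1 and 179 CPM. In all 3 both mutant-labelled epithelia were again above both controls. Adjusted for length, the log2 ratio to the E12.5 control fell below 0 for Tcf21 (-0.13) and Hand1 (-0.16). In 15 of the 21 the ratio lay above 0 here and below 0 in the stage reference. The 30 listed genes summed to 1058 CPM in the E12.5 control and 1700 CPM in the E12.5 mutant-labelled epithelium, which that reference divides by. The median log2 ratio of the 21 in that reference was -2.46, against -1.67 for E14.5 control over E12.5 control epithelium.

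Hox genes, which specify position along the body, were called in 1 direction. Of 39 listed genes 19 were measured, 7 were higher and none lower, against 6.5% and 8.66% of all measured genes. Their median log2 ratio was 0.74 (0.62 adjusted for length, with 5 higher). Of the 13 at 5 CPM in both libraries 4 were higher. The other 6, Hoxa10, Hoxb13 and Hoxd13 among them, passed through the E14.5 mutant-labelled library alone and so had to be higher. The 39 genes summed to 204 CPM in the E12.5 control, 380 CPM in the E12.5 mutant-labelled, 94.6 CPM in the E14.5 control and 376 CPM in the E14.5 mutant-labelled epithelium, and to 633 and 972 CPM in the mesenchyme. Both mutant-labelled epithelia were thus higher than both controls.

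Hoxa5 read 31.2, 54.3, 16.9 and 67.9 CPM (2.17-fold higher, 1.97 to 2.40), and Hoxa2 (chr6:52162417-52164831) 6.36, 12.4, 3.90 and 16.8 CPM (2.64-fold, 2.13 to 3.29). 3 of the 7 belong to the posterior end of the clusters, and no library but the E14.5 mutant-labelled epithelium held more than 1 CPM of them. Hoxa10 read 7.40 CPM there, Hoxb13 5.53 CPM and Hoxd13 5.82 CPM, against no read in the E12.5 control, which gives at least 52.4-, 39.1- and 41.2-fold. The E14.5 control had no read of Hoxa10 or Hoxd13 and 0.0685 CPM of Hoxb13, and the mesenchyme libraries held at most 0.0643 CPM of any of the 3. Hoxd12 read 3.81 CPM there, under the 5 CPM filter, and Hoxa13 had no read in any library. Such genes are normally active in hindgut, urogenital and tail tissue. TALE homeobox genes, the partners of Hox proteins, had 13 measured members with none called and a median log2 ratio of -0.24, which turned to 0.04 relative to the general epithelial genes. Meis1 read 304, 314, 115 and 223 CPM and Pbx3 83.6, 73.0, 45.7 and 45.1 CPM.

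Of 19 smooth muscle and pericyte genes measured, 9 were higher and 1 lower, with a median log2 ratio of 0.74 (0.48 adjusted for length), 13 were highest of the 4 epithelial libraries and 6 were called above all 3 others. Of the 16 at 5 CPM in both libraries 6 were higher and 1 lower. Acta2, smooth muscle actin, read 34.1 CPM in the E12.5 control, 97.8 in the E12.5 mutant-labelled, 36.6 in the E14.5 control and 287 CPM in the E14.5 mutant-labelled epithelium (8.42-fold, 7.78 to 9.13), against 26.8 and 23 CPM in the mesenchyme. Myh11, the smooth muscle myosin heavy chain, read 1.08, 7.88, 2.60 and 35.3 CPM (32.6-fold, 21.4 to 51.8), and Actg2, enteric smooth muscle actin, 2.97, 25, 3.36 and 58.2 CPM (19.6-fold, 15.2 to 25.8). In all 3 the E14.5 mutant-labelled library was highest of the 6, the E12.5 mutant-labelled epithelium came second, and the mesenchyme libraries were low. Myl9, a myosin light chain, read 63.1, 101, 36.0 and 173 CPM (2.75-fold, 2.57 to 2.94). Notch3, a receptor of vascular smooth muscle and pericytes, was the lower member, at 74.2, 54.1, 13.8 and 21.8 CPM (3.40-fold, 3.01 to 3.86).

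The promoters of 16 of the 19 smooth muscle genes were searched for the CArG box, the 10-letter site of serum response factor. It was found in 2 of the 16, Cnn2 and Myl9 (12.5%), against 1.57% of all promoters. Among Hox genes, TGATTNA, a form of the site of Pbx with Hox proteins, was found in 2 of 10 promoters, Hoxa2 and Hoxd8 (20%), and among splanchnic factors in 1 of 10, Tlx1 (10%), against 10.6% of all promoters. Those of Myl9 (chr2:156775214-156775513, plus strand) and Hoxa2 (chr6:52164782-52165081, minus strand) are shown as the called genes with a match, from RefSeq (GRCm38.p6), with matches in capitals.
Myl9: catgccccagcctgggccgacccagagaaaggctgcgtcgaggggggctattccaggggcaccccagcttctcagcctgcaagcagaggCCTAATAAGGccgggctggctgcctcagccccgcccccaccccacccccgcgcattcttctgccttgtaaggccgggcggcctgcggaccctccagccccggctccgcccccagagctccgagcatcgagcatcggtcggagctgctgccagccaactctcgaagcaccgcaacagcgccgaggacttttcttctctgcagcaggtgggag
Hoxa2: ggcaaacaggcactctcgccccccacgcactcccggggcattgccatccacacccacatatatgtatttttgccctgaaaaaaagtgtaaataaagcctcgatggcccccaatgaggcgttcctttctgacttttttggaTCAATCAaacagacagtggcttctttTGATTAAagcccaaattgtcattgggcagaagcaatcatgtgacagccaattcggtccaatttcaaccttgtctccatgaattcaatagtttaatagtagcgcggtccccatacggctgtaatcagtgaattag
The Myl9 match begins 161 bases before the start, and the Hoxa2 matches at -110, as the reverse complement TCAATCA, and at -84.

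Part of the genes of other muscle and of nerve were higher. Of 25 skeletal and cardiac muscle genes only 6 were measured, and 5 were called higher, 1 of them among the 2 at 5 CPM in both. The other 4, Myod1 and Myh8 among them, passed through the E14.5 mutant-labelled library alone and so had to be higher. Myod1, the master factor of skeletal muscle, had no read in either E12.5 epithelium, 0.548 CPM in the E14.5 control and 7.18 CPM in the E14.5 mutant-labelled epithelium, at least 50.8-fold higher. Myh8, a fetal myosin, read 0.659, 1.77, 2.53 and 8.91 CPM (13.5-fold, 7.75 to 25.4). Of 20 neural crest, glial and neuronal genes measured, 8 were higher and 1 lower, with a median log2 ratio of 0.79 (0.82 adjusted for length). Of the 17 at 5 CPM in both, 5 were higher and 1 lower. Tubb3, neuronal tubulin, read 19.7, 19.1, 29.7 and 66.2 CPM (3.36-fold, 2.99 to 3.78), and Phox2a, a factor of autonomic neurons, 1.79, 3.48, 3.15 and 8.62 CPM (4.82-fold, 3.32 to 7.13). Sox10, the factor of enteric glia and crest, read 18.9, 9.92, 9.73 and 26.7 CPM, 1.41-fold higher (1.23 to 1.63).

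Blood cell genes moved in opposite directions. Granule proteins of neutrophils were present in the 3 other epithelial libraries and nearly gone from the E14.5 mutant-labelled one. Ltf, lactoferrin, read 71.5 CPM in the E12.5 control, 25.9 in the E12.5 mutant-labelled and 40.9 in the E14.5 control, with no read in the E14.5 mutant-labelled epithelium, at least 332-fold lower. Ngp read 71.3, 32.1, 64.8 and 1.15 CPM (62.1-fold lower, 38.1 to 109), and S100a9 30.7, 15.2, 36.4 and 1.01 CPM (30.5-fold lower, 18.1 to 56.2). Camp, Lcn2 and S100a8 were lower too, which makes 6 of the 12 measured neutrophil and mast cell genes, all 6 called below each of the other 3 epithelial libraries. These 6 passed the 5 CPM filter through the E12.5 control alone and so had to be lower in this pair. Of the 3 members at 5 CPM in both libraries 1 was higher and none lower.

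Mast cell enzymes were higher in both E14.5 libraries than in both E12.5 epithelia. Cpa3, the mast cell carboxypeptidase, read 15.3, 9.86, 50.1 and 97.5 CPM (6.39-fold, 5.66 to 7.24), Cma1, a chymase, 3.72, 0, 24.4 and 57.4 CPM (15.4-fold, 12.2 to 19.7), and Tpsb2, a tryptase, 0, 0, 32.1 and 48.5 CPM (at least 344-fold). Cma1 and Tpsb2 passed the filter through the E14.5 mutant-labelled library alone and so had to be higher in this pair. Among other leukocyte genes 1 of 19 measured was called higher, C1qc of macrophages, which was not called adjusted for length, with a median log2 ratio of 0.30. The embryonic globin Hbb-y read 0.235, 13.3, 3.56 and 23.1 CPM, and 46.2 and 0.643 CPM in control and mutant-labelled mesenchyme, an order that followed neither fraction nor stage.

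Genes of other cell types near the bud were called in differing directions, and more often than the 15.2% of all measured genes. Of 23 endothelial genes measured 2 were higher and 4 lower, and the median log2 ratio of -0.09 turned to 0.19 relative to the general epithelial genes, to 0.06 at a 1 CPM filter or none and to 0.22 at 20 CPM. Of the 20 at 5 CPM in both, 2 were higher and 2 lower. Kdr, the main VEGF receptor, read 49.3, 42.2, 33.7 and 14.9 CPM (3.32-fold lower, 2.86 to 3.87), while Lyve1, a receptor of lymphatic endothelium and macrophages, read 6.22, 4.93, 30.8 and 38.6 CPM (6.21-fold higher, 5.13 to 7.58). All 10 measured mesothelial genes reached 5 CPM in both libraries, and 5 were higher and none lower, with a median log2 ratio of 0.89 (0.77 adjusted for length, with 3 higher). Aldh1a2, which makes retinoic acid in mesothelium and mesenchyme, read 31.2, 36.4, 84.0 and 124 CPM (3.98-fold higher, 3.63 to 4.36). Of 10 hepatocyte genes measured 1 was higher and 4 lower, and 2 of the lower ones passed through the E12.5 control alone. Fgg, a fibrinogen chain, read 13.5, 19.6, 0 and 1.01 CPM (13.4-fold lower, 7.85 to 24.8), and Serpina6, which encodes the corticosteroid carrier and followed the acinar genes here, 498, 581, 4014 and 1138 CPM (2.29-fold higher, 2.23 to 2.35). Adjusted for length, none was called higher and 3 lower.

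Transcripts of several genes of Notch signalling, which holds progenitors back from differentiation, were lower. Of 26 genes measured 9 were lower and 1 higher, against 8.66% and 6.5% of all measured genes. Their median log2 ratio was -0.42 (-0.25 adjusted for length, with 8 lower and 2 higher). It was -0.55 for E14.5 control over E12.5 control epithelium, and -0.10 for E14.5 mutant-labelled over E14.5 control epithelium. Of the 24 at 5 CPM in both, 8 were lower and none higher. The receptor gene Notch1 read 103 CPM in the E12.5 control, 61.4 in the E12.5 mutant-labelled, 54.2 in the E14.5 control and 23.6 CPM in the E14.5 mutant-labelled epithelium (4.36-fold lower, 3.88 to 4.91), and Notch2 95.4, 54.1, 22.5 and 19.6 CPM (4.87-fold, 4.29 to 5.54). The ligand gene Jag1 read 117, 85.7, 45.9 and 33.1 CPM (3.52-fold, 3.19 to 3.90). In these 3 the E12.5 control was highest of the epithelial libraries and the E14.5 mutant-labelled one lowest. The target Hey1 was 2.64-fold lower (2.24 to 3.12), while Hes1, the main target in pancreatic progenitors, read 173, 148, 242 and 135 CPM, 1.28-fold lower (1.21 to 1.35). Jag2 was the higher one, at 2.07, 1.84, 9.45 and 5.96 CPM.

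FGF signals from the mesenchyme, Fgf10 first among them, keep the bud growing through Fgfr2. Of 20 FGF pathway genes measured 7 were lower and 2 higher, against 8.66% and 6.5% of all measured genes. Their median log2 ratio was -0.58 (-0.53 adjusted for length, with 6 lower). Of the 18 at 5 CPM in both, 6 were lower and 1 higher. Fgfr2 read 184, 111, 94.1 and 64.0 CPM (2.87-fold lower, 2.67 to 3.09), Fgfr4 90.8, 71.9, 49.9 and 29.2 CPM (3.11-fold, 2.79 to 3.46), and the ligand Fgf10 itself 8.01, 5.45, 0.274 and 8.69 CPM, a 1.09-fold ratio (0.852 to 1.38). The E14.5 mutant-labelled library thus had the lowest receptor levels of the 4 and kept the E12.5 level of Fgf10, which was nearly absent from the E14.5 control. The 2 higher genes were the ligand Fgf18 and Fgf13.

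Wnt genes went both ways. Of 29 measured 9 were higher and 4 lower, against 6.5% and 8.66% of all measured genes. Their median log2 ratio of 0.03 turned to -0.05 with plain CPM, to -0.01 at 20 CPM and to -0.06 without genes higher in mesenchyme. The lower ones included the epithelial ligand Wnt7b, at 155, 93.8, 62.8 and 51.2 CPM (3.02-fold, 2.78 to 3.28), and the receptor Fzd7, at 97.0, 58.9, 33.8 and 36.9 CPM (2.63-fold, 2.38 to 2.90). Among the higher ones, Sfrp2, a secreted inhibitor, read 35.4, 104, 48.5 and 136 CPM (3.84-fold, 3.53 to 4.19). Nkd1, an intracellular inhibitor, read 34, 67.3, 43 and 125 CPM (3.68-fold, 3.37 to 4.02). The ligand Wnt4 and the agonist Rspo1 were higher too, with log2 ratios of 1.48 and 1.01. Axin2, a general target, read 11, 18.3, 12.1 and 12.8 CPM. Of the epithelial libraries, Sfrp2 and Nkd1 were highest in the 2 mutant-labelled ones, whereas Wnt7b was highest in the E12.5 control.

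Of 10 Hedgehog pathway genes measured 1 was higher and 1 lower, near the 6.5% and 8.66% of all measured genes. These calls thus do not set the list apart. Its median log2 ratio was -0.45 (-0.06 adjusted for length). Ptch1, the receptor and a target, read 13.2, 7.82, 8.84 and 4.31 CPM (3.06-fold lower, 2.31 to 4.12) but was not called after the adjustment, and Cdon, a co-receptor, was 2.49-fold higher (2.18 to 2.85). Of 27 BMP, TGF-beta and retinoic acid genes measured 8 were higher and 1 lower, against 6.5% and 8.66% of all measured genes. Their median log2 ratio of 0.19 turned to -0.02 at 20 CPM or without a filter. Of the 24 at 5 CPM in both libraries 5 were higher and 1 lower. Among enzymes of retinoic acid synthesis besides Aldh1a2, Aldh1a1 read 3.01, 1.84, 11.8 and 35.6 CPM (11.8-fold, 9.09 to 15.6) and Aldh1a3 0.377, 2.23, 0.822 and 7.61 CPM (20.2-fold, 9.89 to 48.0), both of which passed through the E14.5 mutant-labelled library alone and had to be higher. All 3 were highest of the 4 in the E14.5 mutant-labelled epithelium. The lower member was Gdf11, a ligand that limits endocrine progenitors, at 16.6, 10.4, 3.29 and 6.03 CPM.

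Of the matrix genes, those of the basement membrane were mostly lower, and collagens were called in both directions. Of 24 laminin and basement membrane genes measured 14 were lower and 2 higher, against 8.66% and 6.5% of all measured genes. The median log2 ratio of these 24 genes was -1.24. Their transcripts are long, with a median of 6068.5 bases, and adjusted for length the median was -0.72 with 8 lower. Of the 22 at 5 CPM in both, 12 were lower and 2 higher. Lama1, a laminin chain of early epithelia, read 45.1, 40.8, 15.8 and 10.7 CPM (4.22-fold lower, 3.54 to 5.05), Lama5 64.2, 38, 26 and 17.3 CPM (3.71-fold, 3.23 to 4.27) and Hspg2, perlecan, 52.4, 44.2, 15.8 and 12.9 CPM (4.05-fold, 3.46 to 4.77). Both E14.5 libraries were low, the mutant-labelled one lowest. Lama4, a laminin chain of vessels and muscle, was higher, at 25.8, 30.3, 38.6 and 79.4 CPM (3.08-fold, 2.78 to 3.42). Of 33 collagens measured 9 were higher and 3 lower, against 6.5% and 8.66% of all measured genes. Their median log2 ratio of 0.21 (0.48 adjusted for length, with 13 higher) turned to -0.03 without genes higher in mesenchyme. Of the 29 at 5 CPM in both, 8 were higher and 2 lower. Col2a1, known from cartilage and early epithelia, was the largest decrease, at 245, 139, 86.7 and 48.8 CPM (5.02-fold, 4.64 to 5.45), and Col23a1 and Col26a1 were 3.60- and 3.23-fold higher.

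Ranked by the interval bound nearer to 1 among genes at 10 CPM or more, the 12 farthest above the E12.5 control were Tpsb2, Amy2b, Ins2, Sst, Ins1, Hbb-y, Pitx1, Osr2 and Myh11, described above, with A2m, Agtr2 and Zcchc5. A2m, a plasma protease inhibitor, read 0, 1.31, 3.49 and 10.8 CPM, at least 76.2-fold higher. Agtr2, an angiotensin receptor of fetal tissue, read 2.35, 1.97, 57.5 and 77.4 CPM (32.9-fold, 24.8 to 44.6), so it was high in both E14.5 libraries. Zcchc5 read 2.73, 7.69, 19.8 and 85.9 CPM (31.4-fold, 24.2 to 41.7), above all others. Farthest below lay the neutrophil genes Ltf, Lcn2, Ngp, Camp, S100a9 and Mmp8, with Stfa1, BC100530, Olfm4, Trim6, Atp7b and Tcf24. Olfm4 read 19.3, 5.72, 7.74 and 0.0718 CPM, the last being a single count, and Atp7b, a copper transporter, 22.4, 10.5, 4.25 and 0.646 CPM (34.6-fold lower, 18.1 to 76.2).

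In all, 249 genes (2.04%) were called higher in the E14.5 mutant-labelled than in each of the other 3 epithelial libraries and 132 (1.08%) lower than in each. The highest by this measure were Osr2, Klf14, Actc1, Cldn15, Apcdd1, Zcchc5, Myh11, Htra1, Lum, Emp1, Fbln5 and Pros1. Klf14 read 4.52, 4.53, 9.04 and 49.3 CPM (10.9-fold over the E12.5 control, 8.79 to 13.6). Htra1, a secreted protease, read 16.0, 29.0, 36.2 and 141 CPM (8.81-fold, 7.85 to 9.92), and Fbln5, an elastic fibre protein, 21.6, 22.3, 22.7 and 80.9 CPM (3.74-fold, 3.35 to 4.18). For Fbln5 the first 3 libraries lay close together. Among the lowest, besides genes named already, was Ppp4r4 at 15.9, 14.8, 11.9 and 2.37 CPM (6.70-fold lower, 4.68 to 9.89). Eno1b was also there, but it shares sequence with Eno1 and its values are uncertain.

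Some stage genes stood near the E12.5 level, and whether this reflects a delay was not tested. At 10 CPM or more, 20 genes that were at least 4-fold higher in the stage reference and 70 that were at least 4-fold lower had a log2 ratio within 0.32 of 0 here. Before the 10 CPM condition, 208 and 287 such reference genes were measured. The median size of the log2 ratio over all measured genes was 0.41, so a ratio this near 0 is common and does not set these genes apart. Cckar, the cholecystokinin receptor of acinar cells, read 119 CPM in the E12.5 control, 95.7 in the E12.5 mutant-labelled, 585 in the E14.5 control and 137 CPM in the E14.5 mutant-labelled epithelium, a 1.15-fold ratio (1.09 to 1.22). Mat1a, an enzyme of methionine metabolism, read 23.2, 11.6, 103 and 18.9 CPM, and Edem1, of the degradation of misfolded secretory proteins, 81.2, 62.0, 262 and 77.1 CPM. The high level in the E14.5 control follows from the rule that chose them.

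Among the held genes that were lower in the stage reference, Nkx2-3, a factor of gut and spleen mesenchyme, read 55.0, 84.2, 10 and 60.8 CPM, and 170.4 and 344 CPM in the mesenchyme. Epha4, a receptor of cell guidance, read 61.3, 82.7, 10.3 and 56.9 CPM, with 271 and 152 CPM in the mesenchyme, and Crispld2 26, 65.4, 6.51 and 28.1 CPM, with 66.6 and 112 CPM. The low level in the E14.5 control follows from the rule that chose these genes.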

How the data were processed

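For each of the 6 libraries the authors deposited raw counts under gene symbols. These counts are whole numbers without normalisation, and the tables' names call them deduplicated, which lowers very abundant genes most. The submitters' processing notes name mm10 as the assembly, with Cufflinks 2.2.1 and Cuffdiff 2.2.1. No aligner, counter, annotation or strand setting is given in the sources used here, so overlapping genes and genes with near-identical copies are uncertain. The name of the E12.5 control table differs from the other 5 in form and date, and this cannot be told apart from its group. How GFP cells came from control embryos is not stated by the labels. The 5 summary lines of each table were dropped. Reads on no gene made up 4.69% to 8.84%, ambiguous reads 1.53% to 1.72% and reads with several alignments 13.7% to 20.1%.

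Counts were turned into CPM with TMM factors over all 6 libraries (0.941 to 1.047) from edgeR 4.0.16 in R 4.3.3. Ratios and exact binomial intervals were computed in Python 3.11.15 with numpy 2.4.6, pandas 2.3.3 and scipy 1.17.1, and plots were drawn with matplotlib 3.10.9. A gene without a read was set to a floor of 3 counts per library. The reads carry no molecular identifiers and may repeat a molecule, so floors and intervals cover counting error only. With 1 library per group no test across samples was possible, and lists are described by counts and medians beside those of all genes. Gene positions and transcript lengths came from GENCODE M21, on the assembly of mm10. The calculation was tested on simulated counts for this pair, 11883 genes in all. It called 100% of 100 genes changed by 1.5 and 100% of 100 changed by 3 on the log2 scale, and 0% of unchanged ones. The simulated draws held counting error alone.

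The comparison, the gene lists and the alternatives were chosen with earlier results of these data known. The rule for named genes took the 12 highest and 12 lowest ratios at 10 CPM or more, ranked by the interval bound nearer to 1 leaving out sex-linked genes and models with no name, then as many as 6 members of each list in the direction of its median and 2 against it, the 12 genes farthest above and below all 3 other epithelial libraries, and the 12 largest stage genes each way that were held within 1.25-fold. It added Pbx2, Nkx2-5, Neurog3, Ins1, Ins2, Gcg, Pdx1, Ptf1a, Cpa1, Cdh1, Vim and Foxf1. Other list members that the text names, such as Cel, Epcam, Spp1, Myl9, Hes1, Sox10, Fgf10, Hoxd12, Insm1 and Top2a, were chosen after their values were seen. An allele of the mutant genotype and some genes are not reported here. As alternatives, the scaling was changed to DESeq2 1.42.0 size factors, plain CPM, TMM over the 2 libraries alone, TMM without the 50 most abundant genes, ratios relative to the general epithelial genes and libraries thinned to the smallest total. The filter was set to 1 CPM, 20 CPM or none and the threshold to 1.5-fold or 4-fold. The interval condition, genes higher in mesenchyme and genes without a read in 1 library were left out in turn. The adjustment for transcript length, in 25 bins, was added after seeing the data.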

Additional observations from a re-analysis of the deposited data

How the results depend on the processing

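With 1 pool per group, nothing here separates genotype label, stage, embryo pool and table, and counting is the only error measured. Depth limits genes near the 5 CPM filter most. No paired analysis was possible because each group has 1 library and the result comes from no test.

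The counts of genes higher and lower (794 and 1057) became 1246 and 596 relative to the general epithelial genes, 1518 and 1641 at 1 CPM, 380 and 624 at 20 CPM, 1907 and 1943 without a filter, 1703 and 2435 at 1.5-fold and 210 and 142 at 4-fold, and 617 were lower adjusted for length. Fewer or more genes enter under another filter or threshold. The higher share of the calls was 42.9% as reported, 36.0% with plain CPM, 55.5% adjusted for length and 59.7% at 4-fold.

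For genes higher in the stage reference, 226 were higher here and 55 lower, and for genes lower in it 71 were higher and 250 lower. In the same order these counts were 469, 170, 204 and 467 at 1 CPM, 112, 24, 32 and 127 at 20 CPM, and 573, 231, 291 and 557 without a filter. They were 340, 107, 174 and 439 at 1.5-fold, 76, 9, 13 and 45 at 4-fold, and 115, 10, 18 and 85 with reference genes chosen at 4-fold. With both comparisons adjusted for length the last count was 139.

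Of the list medians under all alternatives, 473 stayed close to the reported value, 6 moved without changing sign and 15 changed sign. The Wnt median became -0.0457 with plain CPM, -0.0126 at 20 CPM and -0.0571 without genes higher in mesenchyme, which also took the collagens to -0.0267. Relative to the general epithelial genes, acinar transcription factors stood at 0.0109, ductal genes at 0.0888, TALE genes at 0.0420 and endothelial genes at 0.19. Ductal genes stood at 0.0720 and endothelial genes at 0.0641 at 1 CPM and without a filter, and endothelial genes at 0.22 at 20 CPM. The BMP, TGF-beta and retinoic acid median was -0.0202 at 20 CPM and without a filter. The cause of these changes was not tested. Of 294 genes followed, no called one changed direction under the alternatives run, while 21 uncalled ones did, 13 relative to the general epithelial genes and 14 adjusted for length. A called gene differs 2-fold or more. Ratios relative to the general epithelial genes moved the median of all genes only to 0.28, and the longest length class had a median of -0.70. The lack of change among called genes thus follows from the calling rule and is no check on them. In all, 3911 values were close to those reported and 377 moved.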

Other observations

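Several gene groups that mark a state of the cells were compared in the same way. Of 16 interferon response and antigen presentation genes measured, 8 were called higher, none was lower and the median log2 ratio was 0.88 (0.62 adjusted for length, with 5 higher). Of the 14 at 5 CPM in both libraries 6 were higher. Usp18, a brake on interferon signalling, read 6.92 CPM in the E12.5 control, 4.07 in the E12.5 mutant-labelled, 14.4 in the E14.5 control and 28.5 CPM in the E14.5 mutant-labelled epithelium, 4.12-fold above the first (3.40 to 5.01). Ifitm3, a membrane protein that blocks virus entry, read 47.8, 45.4, 204 and 136 CPM in the same order (2.85-fold, 2.64 to 3.08). Both were higher in both E14.5 libraries.

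Cell cycle genes gave few calls beside the 15.2% of all measured genes. Of 36 measured, 1 was higher and 1 lower, with a median log2 ratio of 0.08. Top2a, a topoisomerase of dividing cells, read 292, 251, 396 and 257 CPM. The higher one was Cdkn1c (p57), a cell cycle inhibitor that is also imprinted, at 1636, 2088, 1298 and 3652 CPM (2.23-fold, 2.2 to 2.26), close to the 3583 and 3342 CPM of the mesenchyme libraries. The lower one, Cdk6, was 2.18-fold lower (1.78 to 2.67). Neither was called adjusted for length.

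Of 16 imprinted growth-related genes measured, 3 were higher, Cdkn1c, Ndn and Sgce, and 1 was lower, Peg3, with a median log2 ratio of 0.37. Genes of protein folding in the endoplasmic reticulum and of immediate early response were called about as often as all measured genes (15.2%), and those of hypoxia less often. Of 26 folding genes 1 was higher, Pdia2, a pancreatic disulfide isomerase that read 1.04, 0.394, 44.4 and 5.24 CPM in the same order, and 3 were lower. Of 27 immediate early genes 2 were higher, the near-identical Hspa1a and Hspa1b, and 2 lower, Nr4a1 and Ctgf. Fos, an immediate early transcription factor, read 309, 250.3, 587 and 588 CPM, 1.91-fold above the E12.5 control (1.85 to 1.97). Of 21 hypoxia and glycolysis genes 1 was higher, Egln3. Car9, a target of hypoxia, read 13.5, 15, 152 and 22.7 CPM, high in the E14.5 control alone.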
